A study of Mus musculus with 13 samples.

Results

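The genes described here are 8 chemokine ligands of the mouse, the CXC ligands *Cxcl1*, *Cxcl2*, *Cxcl5*, *Cxcl12*, *Cxcl13*, *Cxcl14* and *Cxcl16* and the CX3C ligand *Cx3cl1*. They were taken by matching these symbols to the Ensembl identifiers of the count table, which gave 8 genes of 47643, and all 8 passed the low-count filter that left 17285 genes for testing. RNA was measured by stranded polyA sequencing of vessel-enriched fractions (neurovasculature) prepared from the brains of 13 male CD1 mice aged 8 to 10 weeks. The study asked how a systemic inflammatory challenge alters the brain vessels and whether an inhibitor of monoacylglycerol lipase (MAGL), the enzyme that breaks down the endocannabinoid 2-arachidonoylglycerol, changes that response. The 4 mice of the Sham_Vehicle group were given PBS in place of lipopolysaccharide (LPS) and the vehicle of the compound. The 5 LPS_Vehicle mice received Salmonella LPS into the peritoneum at 3 mg/kg, at 0, 6 and 24 h, with the same vehicle, a mixture of DMSO, Cremophor and saline. The 4 LPS_CPD4645 mice received that LPS course and CPD-4645, a MAGL inhibitor, under the skin at 10 mg/kg, 30 min after every LPS dose by the labels (the study's text also gives another delay). Tissue was taken at 28 h, 4 h after the last LPS dose, so each value is a level at a single late time. No group received the compound without LPS. The brains used for sequencing were not perfused, so blood cells held in the vessels can contribute RNA. Each library was taken as 1 mouse, and the p-values measure the spread between these libraries.

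The CXC chemokines are small secreted proteins named for a pair of cysteines set apart by 1 residue. *Cxcl1*, *Cxcl2* and *Cxcl5* act on the receptor *Cxcr2* and draw neutrophils out of the blood, and their transcription rises with NF-kB activity. The homeostatic chemokines are made without an inflammatory stimulus and place cells within tissues: *Cxcl12* retains leukocytes and progenitors through *Cxcr4*, *Cxcl13* draws B cells through *Cxcr5*, and *Cx3cl1*, abundant in neurons, signals to the *Cx3cr1* receptor of microglia. *Cxcl16* and *Cx3cl1* are made as membrane proteins that adhere to receptor-bearing cells and are released by proteases.

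Of the 8 genes 4 lie on chromosome 5, namely *Cxcl5* (ENSMUSG00000029371.7, chr5:90759360-90761624), *Cxcl1* (ENSMUSG00000029380.11, chr5:90891241-90893115), *Cxcl2* (ENSMUSG00000058427.10, chr5:90903871-90905938) and *Cxcl13* (ENSMUSG00000023078.6, chr5:95956951-95961068), all on the plus strand of GRCm38. *Cxcl12* (ENSMUSG00000061353.11) is at chr6:117168535-117181367 and *Cx3cl1* (ENSMUSG00000031778.12) at chr8:94772009-94782427, both on the plus strand. *Cxcl14* (ENSMUSG00000021508.10, chr13:56288643-56296551) and *Cxcl16* (ENSMUSG00000018920.11, chr11:70453983-70459984) are on the minus strand. RefSeq promoter windows of GRCm38.p6 were at hand for 6 of the 8 genes, all but *Cxcl5* and *Cxcl16*. The bases before the gene start are shown for the pair of ligands that rose most with LPS, *Cxcl1* (chr5:90890995-90891240) and *Cxcl2* (chr5:90903649-90903870), and for *Cxcl13* (chr5:95956689-95956938), another ligand of that chromosome that rose with LPS, whose window lacks the motif they share. Each is written on the plus strand, 5′ to 3′. Capitals mark matches to GGAANTTCC, the core of an NF-kB consensus, in *Cxcl1* and *Cxcl2*, and to the TATA box TATAAA in *Cxcl13*.
Cxcl1: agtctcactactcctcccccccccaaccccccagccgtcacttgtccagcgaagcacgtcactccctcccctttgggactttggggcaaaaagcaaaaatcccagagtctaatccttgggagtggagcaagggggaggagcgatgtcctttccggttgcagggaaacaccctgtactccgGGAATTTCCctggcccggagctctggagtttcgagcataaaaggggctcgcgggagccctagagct
Cxcl2: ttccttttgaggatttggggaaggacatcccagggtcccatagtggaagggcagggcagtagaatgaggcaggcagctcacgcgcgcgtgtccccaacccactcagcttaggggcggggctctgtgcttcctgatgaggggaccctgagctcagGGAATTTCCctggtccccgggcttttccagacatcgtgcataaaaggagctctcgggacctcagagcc
Cxcl13: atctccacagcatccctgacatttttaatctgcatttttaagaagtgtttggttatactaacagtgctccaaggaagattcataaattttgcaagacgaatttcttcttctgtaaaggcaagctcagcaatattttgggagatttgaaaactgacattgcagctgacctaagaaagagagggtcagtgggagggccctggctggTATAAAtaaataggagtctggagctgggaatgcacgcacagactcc
The letters GGAANTTCC, which read the same on both strands, were found 70 bases before the RefSeq start of *Cxcl1* and 96 bases before that of *Cxcl2*. They were not found in the windows of *Cxcl12*, *Cxcl13*, *Cxcl14* or *Cx3cl1*, and 267 of 32851 windows of 250 bases (0.813%) hold them. TATAAA was found 46 bases before the start of *Cxcl13* and 6 bases before that of *Cx3cl1*, and in 12.4% of all windows. The letters of the NF-kB motif were settled, in place of a longer form of that consensus, after the windows and the matches to the longer form had been seen. The matches in *Cxcl1* and *Cxcl2* and the share of all windows are therefore a description and no test, and a match does not show that a factor binds.

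The libraries held 7813559 to 55133373 counted reads, with LPS_Vehicle mouse 3 (7813559) and LPS_CPD4645 mouse 1 (12548404) the shallowest. All 8 endothelial markers fixed for the check of the tissue were detected in each group. Their summed levels were 290 to 675 CPM (normalised read count, relative to the TMM-scaled library size). By group the medians of this sum were 391 CPM in sham, 649 CPM in LPS_Vehicle and 430 CPM in LPS_CPD4645 mice. But the 7 neuron markers summed to 7614 to 10538 CPM, so the fractions also held much neuronal RNA. In such bulk RNA, fewer cells of a type and less RNA per cell cannot be told apart.

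Per kilobase of exon, which allows levels of different genes to be compared, *Cx3cl1* was highest in sham mice at 189 ± 18.8 CPM per kb (mean ± SD, n = 4), followed by *Cxcl14* at 52.1 ± 7.23 and *Cxcl12* at 11.9 ± 1.91. *Cxcl1* stood at 3.66 ± 4.0 CPM per kb. The 4 lowest ligands were *Cxcl5* (0.758 ± 0.311), *Cxcl2* (0.601 ± 0.506), *Cxcl16* (0.577 ± 0.0669) and *Cxcl13* (0.334 ± 0.240 CPM per kb), whose ranges over the 4 sham mice overlapped. The range of *Cxcl1*, 1.0 to 9.54 CPM per kb, met those of its neighbours only at its ends. Its highest value, from sham mouse 1, passed the lowest of *Cxcl12* (9.11 CPM per kb). Its lowest value lay just under the highest of *Cxcl5* (1.06 CPM per kb). Differences between these genes were not tested. After LPS the order changed: *Cxcl1* reached 128 ± 106 CPM per kb (n = 5), with a range of 44.2 to 261 that took in all 5 values of *Cx3cl1* (143 to 178 CPM per kb). By their means *Cxcl14* (47.5 ± 2.71) and *Cxcl2* (20.1 ± 19.4) came next, but the values of *Cxcl14*, 45.2 to 51.0 CPM per kb, lay within the range of *Cxcl1* and overlapped that of *Cxcl2*, and *Cxcl16*, *Cxcl12*, *Cxcl13* and *Cxcl5* lay between 3.22 and 7.11 CPM per kb on average. In LPS_CPD4645 mice *Cx3cl1* (146 ± 12.9) and *Cxcl1* (127 ± 67.6) again overlapped, and the range of *Cxcl1*, 35.4 to 198 CPM per kb, also took in all 4 values of *Cxcl14* (52.5 ± 2.63). Lower on average was *Cxcl2* (18.4 ± 11.8 CPM per kb, n = 4). The low sham values rest on few reads, 0 to 23 per library for *Cxcl13* and 4 to 84 for *Cxcl2*.

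**Figure D1:**
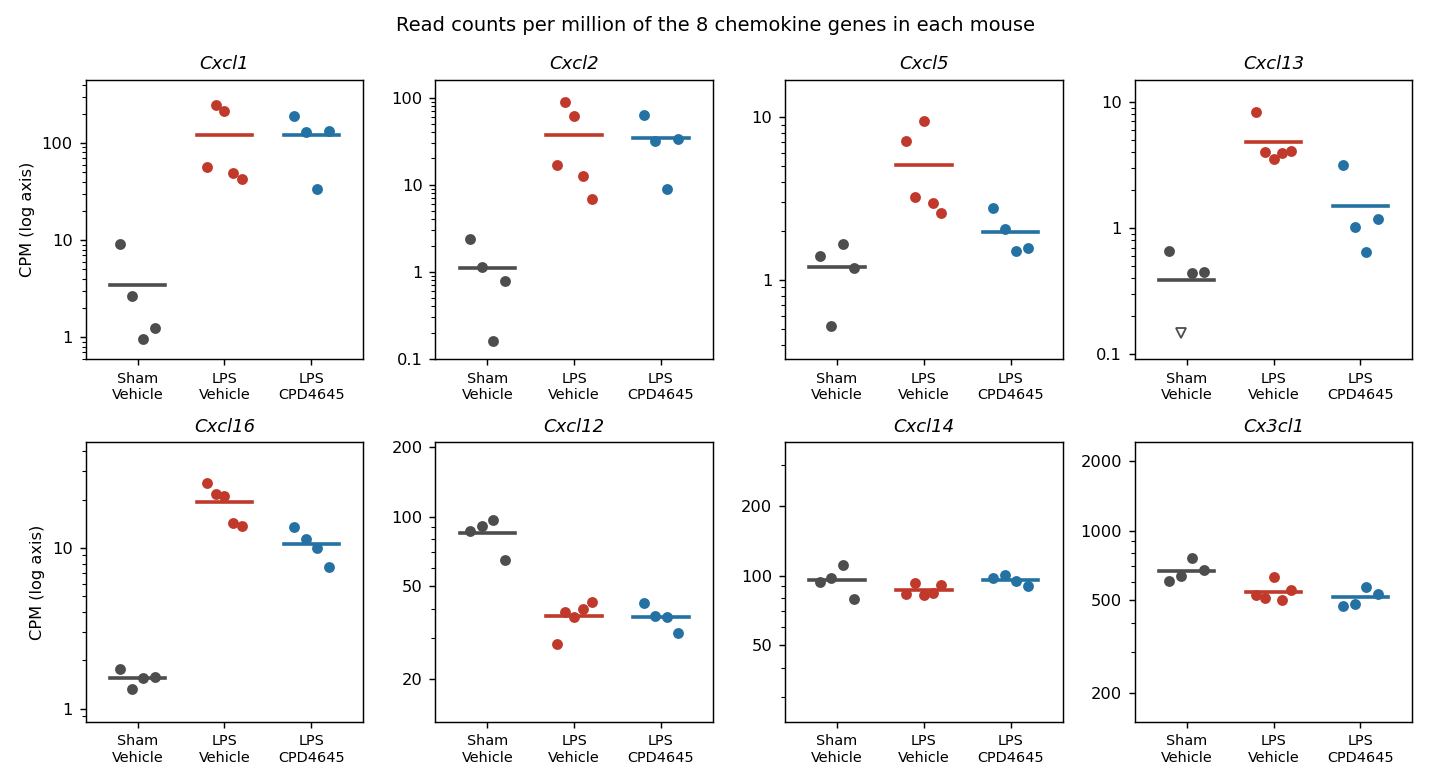
CPM of each of the 8 genes (log axis, panel scales differ) in the 4 Sham_Vehicle, 5 LPS_Vehicle and 4 LPS_CPD4645 mice. Points are mice in the order of their numbers, lines are group means, and the open triangle is a mouse with 0 reads of *Cxcl13*; the 5 ligands *Cxcl1*, *Cxcl2*, *Cxcl5*, *Cxcl13* and *Cxcl16* lay above every sham mouse in all 5 LPS_Vehicle mice.

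The first comparison, of LPS_Vehicle with Sham_Vehicle, shows the response to the challenge itself. A gene was called at 2-fold or more when its p from the edgeR quasi-likelihood test, adjusted by Benjamini-Hochberg over all genes tested, did not exceed 0.05. By this rule 6 of the 8 ligands were called, 5 higher and 1 lower, where 5.68% of the 17285 genes tested were called (4.68% higher and 0.995% lower). The median log2 fold change of the 8 was 2.81, and that of all genes tested was -0.00065. In the 6 called ligands the 5 LPS_Vehicle and 4 sham mice did not overlap, a state found in 18.1% of all genes tested.

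*Cxcl1* was at 9.09, 2.65, 0.955 and 1.23 CPM in the sham mice and at 56.6, 249, 215, 48.9 and 42.1 CPM in the LPS_Vehicle mice. LPS_Vehicle mice 2 and 3 stood well above the other 3, and sham mouse 1 above the other sham mice. *Cxcl1* rose by 5.02 on the log2 scale (SE 0.73, adjusted p = 7.23e-05), a 32.3-fold change. Without sham mouse 1 the log2 value was 6.22.

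*Cxcl2*, the second of the pair, had the same high and low mice. Its sham values were 2.39, 1.13, 0.159 and 0.790 CPM, and its LPS_Vehicle values 17.0, 89.1, 61.6, 12.7 and 6.76 CPM. The log2 rise was 4.95 (SE 0.82, adjusted p = 0.000268), with 5.75 when sham mouse 1 was left out and 4.29 when LPS_Vehicle mouse 2 was. Under limma-voom the log2 value was 4.71 with an adjusted p of 0.116, so that tool did not call *Cxcl2*. The transcripts of *Cxcl2* share 101 of 2209 windows of 75 bases with *Cxcl3*, a near copy, so some reads of one could be counted for the other or dropped. *Cxcl3* itself (named after its values were seen) was at 0 to 0.0494 CPM in sham mice and at 0.755, 2.71, 3.78, 0.192 and 0.0894 CPM in LPS_Vehicle mice, and its reads were too few for the test.

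Deviations of *Cxcl1* and *Cxcl2* from their group means, on log2 CPM over the 13 mice, had a Pearson r of 0.94, the highest of the 28 pairs of ligands, which ranged down to -0.42. This is a description of mice that share library and preparation. The ratio of *Cxcl2* to *Cxcl1* in CPM was 0.161 to 0.358 in the 9 LPS-treated mice and 0.167 to 0.640 in sham mice.

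*Cxcl5*, a neutrophil attractant known from epithelial cells and platelets, rose by less on the log2 scale. It was at 1.40, 0.523, 1.67 and 1.18 CPM in sham mice and at 7.10, 3.23, 9.45, 2.96 and 2.59 CPM in LPS_Vehicle mice, with mice 1 and 3 apart from the rest. Unlike *Cxcl1* and *Cxcl2*, its lower LPS_Vehicle values were close to the highest sham value. The log2 rise was 2.03 (SE 0.42, adjusted p = 0.00194). Over all 21 alternatives it lay between 1.71 and 2.23. A short stretch, 11 of 1926 windows, is shared with *4930470B04Rik* and *Ilf2*.

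*Cxcl13*, the B-cell attractant, was at 0.656, 0, 0.438 and 0.444 CPM in sham mice and at 8.34, 3.98, 3.53, 3.97 and 4.08 CPM in LPS_Vehicle mice. Apart from the high LPS_Vehicle mouse 1, the LPS values lay close together, in contrast to those of *Cxcl1*. The log2 rise was 3.59 (SE 0.58, adjusted p = 0.000189), and 4.23 under limma-voom. The 4 B-cell markers summed to at most 1.25 CPM in any mouse of the 3 groups, and its receptor *Cxcr5* was at 0 to 0.137 CPM.

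*Cxcl16*, the membrane-bound ligand of *Cxcr6*, showed the narrowest spread of the 5 rising ligands among LPS_Vehicle mice. It was at 1.77, 1.33, 1.55 and 1.58 CPM in sham mice and at 25.2, 21.7, 21.2, 14.3 and 13.6 CPM in LPS_Vehicle mice. The highest LPS_Vehicle mouse was 1.85 times the lowest, against 5.91 times for *Cxcl1* and 13.2 times for *Cxcl2*. *Cxcl16* rose by 3.61 on the log2 scale (SE 0.23, adjusted p = 1.28e-08), or 12.2-fold, and the 21 alternatives gave 3.49 to 3.71. Its exons share 552 bases with *Zmynd15* on the opposite strand. *Zmynd15*, at 0.161 to 2.27 CPM, also rose with LPS (log2 fold change 2.14, SE 0.51, adjusted p = 0.00588), and the strand used for counting is not given in the sources used here, so reads of the shared bases cannot be assigned.

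*Cxcl12* was the only one of the 8 ligands called lower. This ligand, made by vessel-wall and stromal cells without a stimulus, was at 87.0, 90.8, 96.5 and 65.2 CPM in sham mice and at 28.2, 38.9, 36.8, 39.95 and 42.8 CPM in LPS_Vehicle mice. Even the highest LPS_Vehicle mouse stayed below the lowest sham mouse. *Cxcl12* fell by 1.18 on the log2 scale (SE 0.13, adjusted p = 2.34e-06), to 0.44 of the sham level. The 8 pericyte and smooth muscle markers moved in part the same way. Their summed level was 192 to 281 CPM in sham and 155 to 232 CPM in LPS_Vehicle mice. Of these 8 markers 3 were called lower, and none was at 0 in a whole group. At the adjusted p alone 4 were lower and 1 was higher. The 8 endothelial markers were split, with 2 called higher and 2 called lower, beside 4.68% and 0.995% of all genes tested. The part of these cells in the fall of *Cxcl12* was not tested.

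*Cx3cl1* was at 605, 637, 759 and 676 CPM in sham mice and at 528, 510, 630, 504 and 552 CPM in LPS_Vehicle mice, with LPS_Vehicle mouse 3 inside the sham range. It fell by 0.30 on the log2 scale (SE 0.09, adjusted p = 0.0260), under the 2-fold threshold. With *Cxcl12* it made 2 of the 8 lower at the adjusted p alone, beside 8.86% of all genes tested. Its adjusted p was above 0.05 without any 1 of 5 mice, up to 0.121 without sham mouse 3. Beside it, the summed neuron markers went from a median of 9420 CPM in sham to 7881 CPM in LPS_Vehicle mice, with 1 of the 7 lower at the adjusted p alone, and their part in the change was not tested. *Cxcl14*, an epithelial and neuronal chemokine, was at 93.6, 97.2, 111 and 79.0 CPM in sham mice and at 83.2, 93.2, 82.5, 84.0 and 90.9 CPM in LPS_Vehicle mice. The groups overlapped, and its log2 difference was -0.13 with a 95% interval of -0.32 to 0.05 (adjusted p = 0.317), which lies within a 2-fold change either way.

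**Figure D2:**
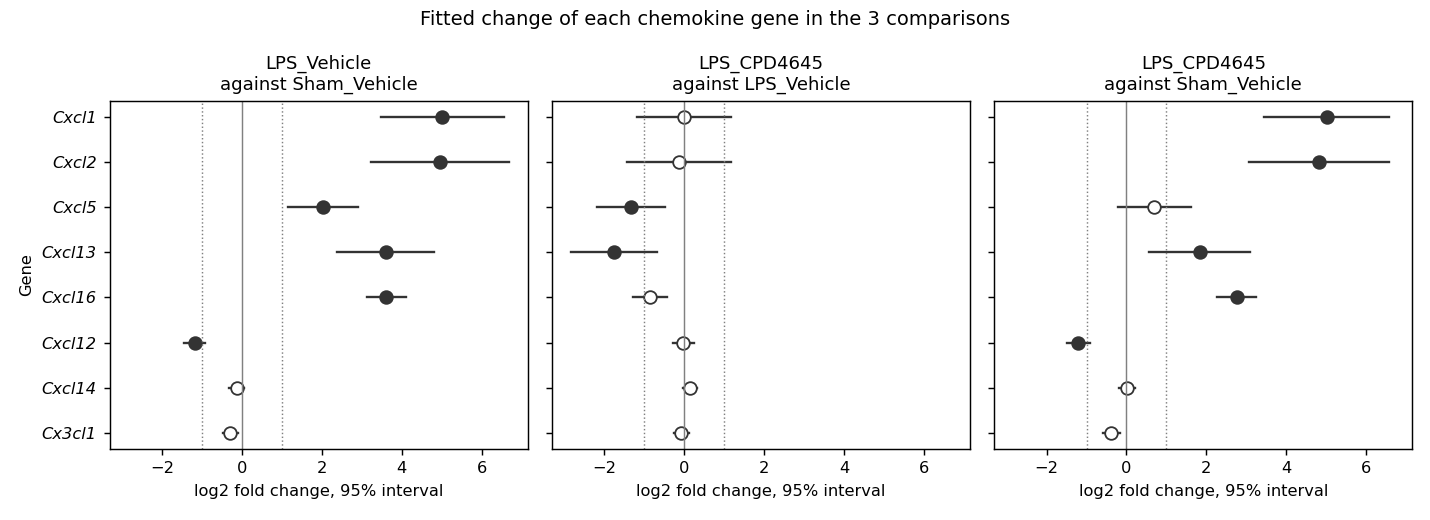
Log2 fold changes of the 8 genes in the 3 comparisons, with 95% intervals from the fit. Filled points passed an adjusted p of 0.05 at 2-fold or more and open points did not, and dotted lines mark 2-fold; in the comparison of the LPS groups *Cxcl1* and *Cxcl2* lie at -0.0047 and -0.13 with wide intervals, while *Cxcl5* and *Cxcl13* are filled.

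The second comparison, LPS_CPD4645 with LPS_Vehicle, asks what the compound did under the same challenge. Of the 8 ligands 2 were called, both lower, where 5.90% of all genes tested were called (1.70% higher and 4.19% lower). At the adjusted p alone, with no fold required, 3 of the 8 were lower, beside 16.4% of all genes tested that were lower. The median log2 difference of the 8 was -0.11, against -0.02 over all genes tested. The LPS_Vehicle mice stand in both comparisons, so a high LPS_Vehicle value enters the first as a rise and the second as a fall.

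For *Cxcl13* the LPS_CPD4645 mice were at 3.16, 1.01, 0.639 and 1.18 CPM, all below the lowest LPS_Vehicle mouse at 3.53 CPM. *Cxcl13* was lower by a log2 difference of -1.76 (SE 0.51, adjusted p = 0.0147), which left 0.30 of the LPS_Vehicle level. The reads behind these values were 40, 29, 17 and 30 in the LPS_CPD4645 mice. The call was lost without LPS_Vehicle mouse 1 (-1.45, adjusted p = 0.0535) and without LPS_CPD4645 mouse 2 (-1.61, adjusted p = 0.0525), and without the 2 shallowest libraries the value was -2.42.

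*Cxcl5* was at 2.77, 2.06, 1.5 and 1.57 CPM in the LPS_CPD4645 mice, and mouse 1 of these lay within the LPS_Vehicle range. The 2 high LPS_Vehicle mice, at 7.10 and 9.45 CPM, were far above all of them, and the other 3 close to them. The log2 difference was -1.33 (SE 0.41, adjusted p = 0.0188). Leaving out LPS_Vehicle mouse 1, LPS_CPD4645 mouse 3 or LPS_CPD4645 mouse 4 raised the adjusted p to 0.0565, 0.0574 and 0.0585, and limma-voom gave -1.02 with an adjusted p of 0.0547. Over the 21 alternatives the difference stayed between -1.51 and -1.02.

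*Cxcl16* was at 13.5, 11.4, 10.0 and 7.57 CPM in the LPS_CPD4645 mice, and the highest of them lay just under the lowest LPS_Vehicle mouse, at 13.6 CPM. It was lower by a log2 difference of -0.86 (SE 0.20, adjusted p = 0.00346), a 1.81-fold change that is under the 2-fold threshold. No single mouse decided this: the adjusted p was at most 0.0174 and the difference -0.98 to -0.71 over the 21 alternatives. *Cxcl13* and *Cxcl16* were thus the 2 ligands whose LPS groups did not overlap, beside 23.0% of all genes tested. *Zmynd15*, opposite *Cxcl16*, was at 0.667 to 1.32 CPM in LPS_CPD4645 mice and 0.684 to 2.27 CPM in LPS_Vehicle mice, and these ranges overlapped.

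For the pair that had risen most with LPS, no difference between the LPS groups was detected. *Cxcl1* was at 189, 131, 33.7 and 132 CPM in the LPS_CPD4645 mice, a range that runs from below the lowest LPS_Vehicle mouse to well inside that group. Its log2 difference was -0.0047 with a 95% interval of -1.19 to 1.18 (adjusted p = 0.997). For *Cxcl2* the values were 62.6, 31.7, 8.88 and 33.5 CPM, all within the LPS_Vehicle range, and the log2 difference was -0.13 with an interval of -1.43 to 1.16 (adjusted p = 0.891). These intervals are wide enough to hold a 2-fold change in either direction, so a difference of that size was not detectable with these mice. LPS_CPD4645 mouse 3 was the lowest of its group for both genes.

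The 3 constitutive ligands were measured more tightly. *Cxcl12* was at 42.2, 37.2, 37.1 and 31.3 CPM in the LPS_CPD4645 mice, and its log2 difference from LPS_Vehicle was -0.02 with an interval of -0.29 to 0.25. *Cx3cl1*, at 474, 484, 571 and 535 CPM, differed by -0.08 with an interval of -0.27 to 0.11. *Cxcl14*, at 97.9, 101, 94.8 and 89.7 CPM, differed by 0.14 with an interval of -0.04 to 0.33. The LPS groups overlapped in each of them, the adjusted p was 0.926, 0.545 and 0.234 in that order, and each interval lies within a 2-fold change.

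**Figure D3:**
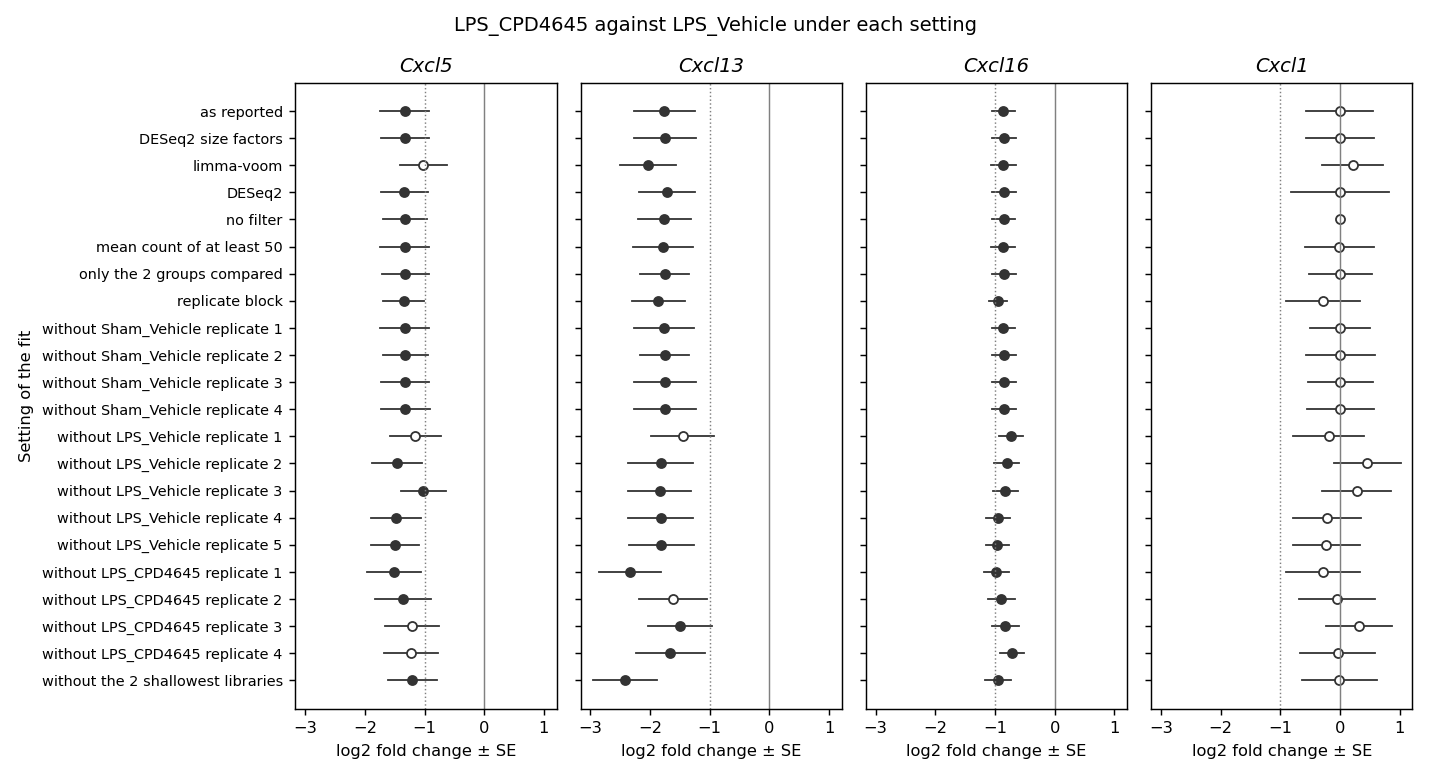
Log2 fold change of LPS_CPD4645 against LPS_Vehicle, ± SE, for *Cxcl5*, *Cxcl13*, *Cxcl16* and *Cxcl1*, as reported and under each of 21 alternatives. Filled points have an adjusted p of at most 0.05 and the dotted line marks a 2-fold fall; *Cxcl16* is filled in every setting at -0.98 to -0.71, *Cxcl5* and *Cxcl13* turn open in 4 and 2 settings, and *Cxcl1* lies between -0.28 and 0.46, with no error bar where its difference without a filter is too near 0 to give an SE.

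The third comparison, LPS_CPD4645 with Sham_Vehicle, shows where mice given both LPS and the compound stood against sham. Without a group given the compound alone, a remaining response to LPS and an effect of the compound itself cannot be told apart. This comparison called 5 of the 8 ligands, 4 higher and 1 lower, where 11.1% of all genes tested were called (6.11% higher and 4.98% lower). The 2 groups did not overlap in 3 higher and 2 lower ligands, beside 37.5% of all genes tested. It shares the sham mice with the first comparison and the LPS_CPD4645 mice with the second. *Cxcl1* stood 5.01 higher than in sham mice on the log2 scale (SE 0.74, adjusted p = 4.39e-05) and *Cxcl2* 4.82 higher (SE 0.83, adjusted p = 0.000199), with 6.21 and 5.61 when sham mouse 1 was left out. Limma-voom did not call *Cxcl2* here either (4.86, adjusted p = 0.0721). *Cxcl16* stood 2.75 higher (SE 0.24, adjusted p = 1.40e-07), and its LPS_CPD4645 mice were all above all sham mice. *Cxcl12* fell by 1.20 on the log2 scale (SE 0.14, adjusted p = 2.74e-06).

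The 2 ligands called lower under the compound were compared with sham. *Cxcl13* was still 1.83 higher than in sham mice on the log2 scale (SE 0.60, adjusted p = 0.0223), but LPS_CPD4645 mouse 3 lay within the sham range. Without LPS_CPD4645 mouse 1 the value was 1.26 (adjusted p = 0.0983), without the 2 shallowest libraries 1.25 (adjusted p = 0.103) and with limma-voom 2.20 (adjusted p = 0.0697). *Cxcl5* was not called, with a log2 difference of 0.70, a 95% interval of -0.22 to 1.61 and an adjusted p of 0.220, and 2 of its LPS_CPD4645 mice lay within the sham range. *Cx3cl1* fell by 0.38 on the log2 scale (SE 0.10, adjusted p = 0.00463), under the 2-fold threshold, so that 2 of the 8 were lower at the adjusted p alone, beside 19.3% of all genes tested. *Cxcl14* differed by 0.01, with an interval of -0.19 to 0.20.

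The receptors of these ligands were few in reads apart from those of resident cells. *Cxcr2*, the neutrophil receptor of *Cxcl1*, *Cxcl2* and *Cxcl5*, had 0, 0, 2 and 0 reads in the sham mice, 12, 122, 4, 33 and 39 in the LPS_Vehicle mice and 2, 1, 0 and 3 in the LPS_CPD4645 mice. It passed the low-count filter only through the LPS_Vehicle mice, so its values are a description, with no test. No fold is given, since the sham and LPS_CPD4645 libraries held at most 3 reads each. In CPM every LPS_Vehicle mouse, at 0.412 to 2.19, lay above every other mouse, the highest of which was at 0.158.

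The 10 neutrophil markers summed to 1.23 to 5.62 CPM in sham mice, 65.9 to 279 CPM in LPS_Vehicle mice and 7.30 to 27.8 CPM in LPS_CPD4645 mice, and 7 of the 10 had enough reads to test. All 7 were called higher with LPS and all 7 lower under the compound. Of these, *Camp* and *Retnlg* passed the low-count filter only through the LPS_Vehicle mice, so the count is a description. *Ly6g*, *Elane* and *Mpo* stayed at or below 0.316 CPM in every mouse. The sum was lower in every LPS_CPD4645 mouse than in any LPS_Vehicle mouse, whereas the mice of these groups overlapped in *Cxcl1* and *Cxcl2*. The monocyte and macrophage markers summed to 5.18 to 6.43, 10.4 to 23.5 and 4.51 to 9.01 CPM in the 3 groups. With 5 of 7 of them tested, 4 were called higher with LPS and 2 lower under the compound. At the adjusted p alone 4 of the 8 endothelial markers were higher and 2 lower with LPS, and 3 were lower under the compound. Of all 17285 genes tested, 1915 were higher and 1531 lower with LPS by that rule, and 2839 were lower under the compound. The part of neutrophils, monocytes, macrophages and endothelial cells in the values of *Cxcl5*, *Cxcl13* and *Cxcl16* was not tested.

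**Figure D4:**
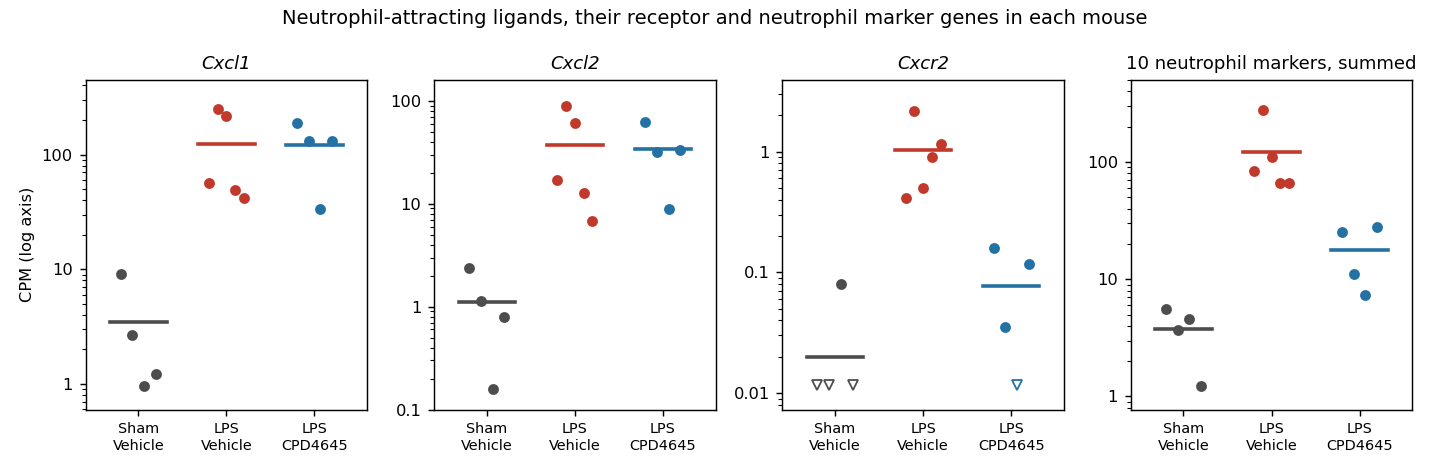
CPM (log axis) of *Cxcl1*, *Cxcl2*, their receptor *Cxcr2* and the sum of 10 neutrophil markers in the 13 mice. Points are mice, lines are group means and open triangles are mice with 0 reads; the LPS groups overlap for both ligands, whereas the LPS_CPD4645 mice lie below all LPS_Vehicle mice for *Cxcr2* and for the marker sum (7.30 to 27.8 against 65.9 to 279 CPM).

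*Cxcr4*, the receptor of *Cxcl12*, was at 4.74 to 8.88 CPM in sham, 2.44 to 4.17 CPM in LPS_Vehicle and 1.62 to 2.24 CPM in LPS_CPD4645 mice, and no 2 groups overlapped. It fell by 0.87 on the log2 scale with LPS (SE 0.22, adjusted p = 0.00893) and was lower again by -0.83 under the compound (SE 0.24, adjusted p = 0.0127). Each step was under 2-fold, and the difference from sham was -1.70 (SE 0.24, adjusted p = 3.21e-05). *Ackr3*, the scavenging receptor of *Cxcl12*, went the other way, with log2 differences of 0.42 (SE 0.14, adjusted p = 0.0438), 0.60 (SE 0.14, adjusted p = 0.00334) and, against sham, 1.02 (SE 0.15, adjusted p = 3.59e-05). *Cxcl12* itself was lower in both LPS groups with no difference detected between them.

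*Ackr1*, the venular receptor that binds and carries many inflammatory chemokines, was called higher with LPS (log2 fold change 1.36, SE 0.19, adjusted p = 4.97e-05), at 45.0 to 49.7 CPM in sham and 75.6 to 202 CPM in LPS_Vehicle mice. It was lower by -0.65 under the compound (SE 0.19, adjusted p = 0.0139), under 2-fold. *Cx3cr1*, the microglial receptor of *Cx3cl1*, fell by 0.74 on the log2 scale with LPS (SE 0.22, adjusted p = 0.0256) and differed by 0.14 between the LPS groups (adjusted p = 0.667). The 6 microglia markers summed to 197 to 264 CPM in sham and 155 to 277 CPM in LPS_Vehicle mice, and their part in the fall of *Cx3cr1* was not tested. *Cxcr1*, *Cxcr5* and *Cxcr6* had too few reads for the test, at 0.137 CPM or less in every mouse. Of the 4 receptors with enough reads apart from *Cxcr2*, *Ackr1* was called higher with LPS, and none of the 4 was called between the LPS groups by edgeR at the 2-fold threshold, though *Cxcr4* and *Ackr1* were lower and *Ackr3* higher at the adjusted p alone.

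Among 8 other CXC ligands, 4 had enough reads to test and 2, the interferon-induced ligands *Cxcl9* and *Cxcl10* of the T-cell receptor *Cxcr3*, were called higher with LPS. The same 2 were called higher again under the compound. *Cxcl10* was at 0.790 to 9.69 CPM in sham, 4.92 to 117 CPM in LPS_Vehicle and 106 to 433 CPM in LPS_CPD4645 mice, with a log2 difference between the LPS groups of 2.64 (SE 0.67, adjusted p = 0.00660). *Cxcl9* differed by 1.87 (SE 0.42, adjusted p = 0.00305).

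Of 9 tested genes for cytokines that induce neutrophil chemokines and for their receptors, 7 were called higher with LPS. The receptor genes *Csf3r* (log2 difference 0.46, adjusted p = 0.393) and *Il17ra* (0.91, adjusted p = 0.000438, under 2-fold) were not called and are named after their values were seen. *Csf3*, the granulocyte growth factor, rose by 5.84 (SE 0.71, adjusted p = 9.74e-06), *Il6* by 5.46 (SE 1.0, adjusted p = 0.000708), *Il1b* by 4.46 (SE 0.63, adjusted p = 4.89e-05) and *Tnf* by 3.51 (SE 0.50, adjusted p = 5.88e-05), all on the log2 scale. The sham mice held only 6, 0, 4 and 6 reads of *Il6*, so the size of its rise is imprecise. Of these 9, *Il1b* (-1.41, SE 0.51, adjusted p = 0.0428) and, named after its values were seen, the neutrophil growth factor receptor *Csf3r* (-2.25, SE 0.38, adjusted p = 0.000348) were called lower under the compound. *Csf3*, *Il6* and *Tnf* were not, with log2 differences of -0.87, -0.19 and 0.92.

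Of 11 NF-kB subunits and inhibitors 7 were called higher with LPS. Under the compound 2 of the 11 were higher at the adjusted p alone, both under 2-fold, beside 14.1% of all genes tested, namely *Nfkbia* (adjusted p = 0.0494) and, named after its values were seen, *Nfkbib* (log2 difference 0.55, adjusted p = 0.000643). The largest rises were those of *Bcl3* (4.58, SE 0.43, adjusted p = 4.97e-07), *Nfkb2* (3.03, SE 0.34, adjusted p = 4.06e-06), *Tnfaip3* (2.31, SE 0.37, adjusted p = 0.000188) and *Nfkbia* (2.18, SE 0.21, adjusted p = 7.39e-07). Between the LPS groups these 4 differed by -0.75, -0.50, 0.53 and 0.52. *Nfkbia* and *Tnfaip3* are direct targets and inhibitors of NF-kB.

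The proteases that release or trim these chemokines were called in 2 of 6 cases with LPS, the neutrophil collagenase *Mmp8* (log2 fold change 5.07, SE 0.83, adjusted p = 0.000243) and the gelatinase *Mmp9* (1.89, SE 0.28, adjusted p = 9.16e-05). Reads of *Mmp8* in the sham mice were 14, 0, 1 and 0, so the size of its rise is imprecise. *Mmp8*, also 1 of the neutrophil markers, was lower by -3.18 under the compound (SE 0.73, adjusted p = 0.00317). The sheddases of *Cxcl16* and *Cx3cl1*, named after their values were seen, were lower under the compound without reaching 2-fold. *Adam17* differed by -0.83 (SE 0.10, adjusted p = 1.93e-05) and *Adam10* by -0.40 (SE 0.09, adjusted p = 0.00347). The LPS_CPD4645 mice lay below all LPS_Vehicle mice for both, and below all sham mice. Among all genes tested, 23.0% did not overlap between the LPS groups and 37.5% between LPS_CPD4645 and sham mice. *Adam17* was at 22.2 to 23.7 CPM in sham, 25.2 to 33.9 CPM in LPS_Vehicle and 16.2 to 16.9 CPM in LPS_CPD4645 mice, and its rise with LPS was 0.35 on the log2 scale (SE 0.10, adjusted p = 0.0180), under 2-fold. Against sham, LPS_CPD4645 mice differed by -0.48 in *Adam17* (adjusted p = 0.00140) and by -0.44 in *Adam10* (adjusted p = 0.00152).

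Genes whose log2 CPM followed each ligand most closely over the 13 mice, among 13777 protein-coding genes that averaged 1 CPM or more, differed between the ligands. Nearest to *Cxcl1* were *Csf3* (Pearson r = 0.98), *Icam1* (0.98) and *Rab20* (0.97), and nearest to *Cxcl2* were *Rab20* (0.98), *Tnfaip3* (0.97) and *Ccl2* (0.96). *Cxcl16* was closest to *Cebpd*, *Cd14* and *Pik3r5*, each at 0.99. Among the genes close to *Cxcl5* were *Cchcr1* (0.95) and *Jun* (0.93), and *Cxcl13* was followed by *Pilra* (0.95), *Tnfsf8* (0.94) and *Mmp19* (0.94). *Cxcl12* had *Itgb4* (0.97), *Myo1d* (0.97) and *Cav1* (0.97) nearest, *Cx3cl1* had *Fmnl1* (0.95), *Ncan* (0.94) and *Tmem121b* (0.93), and *Cxcl14* had *Cst3* (0.87), *Slc31a1* (0.83) and *Bola3* (0.82). These correlations include the differences between the groups and describe likeness across mice alone.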

How the data were processed

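RNA from the neurovascular fraction of 13 mice was sequenced as stranded polyA libraries. The authors deposited 1 table of unnormalized read counts per gene, made with STAR 2.5.2a after bcl2fastq 2.15.0.4, with the mm10 build per the labels and a GENCODE annotation per the study's methods. The strand used for counting is not given in the sources used here. Of the 47643 identifiers, 47224 matched the GRCm38 annotation that gave symbols, coordinates and exon lengths. From the counts, genes were filtered with filterByExpr (minimum count 10, minimum total 15), scaled by TMM (factors 0.908 to 1.08) and tested in 1 fit over the 3 groups with edgeR 4.0.16 (quasi-likelihood test, R 4.3.3), with Benjamini-Hochberg adjustment over 17285 genes. A call needed an adjusted p of at most 0.05 and a 2-fold change. The SE is the log2 fold change over the root of the F statistic, and is not given for fold changes next to 0, where it is unstable. The steps were tested on simulated data.

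The count of a gene sets its counting error, and libraries differed 7.06-fold in depth, so low genes are least precise in LPS_Vehicle mouse 3. The members and lists were chosen with earlier results of these data known. The genes named are the 8 ligands, their receptors and, of each other list of pathway genes, up to 4 called genes with the largest change, plus the 3 genes most correlated with each ligand. Others are said to be named after their values were seen. Replicate libraries of a group were compared pair by pair, and all 22 pairs differed by more than counting noise (chi-square per gene 9.26 to 56.5). Alternatives were DESeq2 1.42.0 size factors, limma-voom (limma 3.58.1), DESeq2, other low-count filters, fits of 2 groups, a replicate block and left-out mice. One of the genes nearest to a ligand is not reported here.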

Additional observations from a re-analysis of the deposited data

Results flagged for a closer look

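Each of the 8 ligands was examined in each of the 3 groups for a mouse that stood apart from the rest of its group by Dixon's gap test on log2 CPM. Of 24 groups 2 had such a mouse, where chance alone gives about 1 in 20 groups, or 1.20 of 24. Both concern *Cxcl13*. Sham_Vehicle mouse 2 had 0 CPM (0 reads), against 0.438 to 0.656 CPM in the other 3 sham mice. LPS_Vehicle mouse 1 was at 8.34 CPM, against 3.53 to 4.08 CPM in the other 4 LPS_Vehicle mice. Without Sham_Vehicle mouse 2 the log2 rise of *Cxcl13* with LPS was 3.20 (adjusted p = 0.000211), and without LPS_Vehicle mouse 1 it was 3.30 (adjusted p = 0.000785).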

How the results depend on the processing

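The count of ligands called was 6 with LPS against sham under every alternative but limma-voom, which gave 5. For LPS_CPD4645 against LPS_Vehicle it was 2, with 1 under limma-voom and 0 to 2 when single mice were left out (0 without LPS_Vehicle mouse 1, 1 without LPS_CPD4645 mouse 2, 3 or 4). For LPS_CPD4645 against sham it was 5, with 3 under limma-voom, 4 without the 2 shallowest libraries and 4 to 5 when single mice were left out (4 without LPS_CPD4645 mouse 1). Of 504 changes of a ligand under an alternative, 471 kept their direction and side of the threshold, 11 fell short of it and 22 turned direction, all of the last in differences that did not pass the test. For *Cxcl1* between the LPS groups the turned values included 0.0045 with DESeq2 size factors, 0.22 with limma-voom, 0.0062 with only the 2 groups and up to 0.46 without single mice. For *Cxcl2* they were 0.15 with limma-voom and up to 0.54 without single mice. For *Cxcl12* they were 0.0258 with the replicate block, 0.0354 for mice 1 to 4 without it and up to 0.0659 without single mice, and for *Cx3cl1* 0.0174 without the 2 shallowest libraries. For *Cxcl14* against sham they were -0.0014 without those libraries and down to -0.0598 without single mice. Other left-out mice kept the direction. All left-out mice together gave -0.28 to 0.46 for *Cxcl1*, -0.58 to 0.54 for *Cxcl2*, -0.11 to 0.0659 for *Cxcl12* and -0.0598 to 0.10 for *Cxcl14*. With only genes of a mean count of at least 50, 123 genes of all were called higher between the LPS groups, against 294, with fewer genes tested. In the other cases the cause was not tested.

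The same replicate number in different groups was not shown to pair mice: the deviations of same-numbered mice correlated at -0.035 to 0.114 (12 pairs) and those of other mice at -0.137 to 0.124 (36 pairs). A fit with the replicate number as a block over mice 1 to 4 called 6, 2 and 5 ligands in the 3 comparisons, with *Cxcl5* at -1.35 and *Cxcl13* at -1.87 between the LPS groups. The fit of the same mice without the block was chosen after seeing the data, holds the same libraries as the one without LPS_Vehicle mouse 5 and was counted once with it. Low counts limit the values of *Cxcl5* and *Cxcl13*, and the LPS_Vehicle mice themselves differed by 5.91 times in *Cxcl1* and 13.2 times in *Cxcl2*.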
